A study of Mus musculus with 16 samples.

Results

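The genes described here encode Rest, a repressor of neuronal genes, and the LSD1-CoREST corepressor complex that Rest and Insm1 can both recruit. The 9 members are Rest, Kdm1a, Rcor1, Rcor2, Rcor3, Hdac1, Hdac2, Hmg20b and Phf21a, out of 18193 genes measured. They were found as the probe sets that name 1 of these genes in the platform annotation, which gave 25 of 34945 such probe sets. Each gene is represented by its brightest probe set over all arrays, and its other probe sets are given beside it. Values are log2 signals, so a difference of 1 is a doubling.

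RNA came from 16 preparations of mouse pancreatic islets, each measured on 1 Affymetrix Mouse430_2 array. The 8 Insm1 mutants were RIPcreER; Insm1flox/lacZ and the 8 controls RIPcreER; Insm1flox/+, all of mixed background (C57BL/6, CBA/J and 129/ola). RIPcreER is a tamoxifen-dependent Cre recombinase driven by the rat insulin promoter, so it acts in beta cells. Both groups received tamoxifen as a 25 mg pellet releasing over 21 days, implanted at an age of 4 to 5 weeks. Islets were collected at 8 to 12 weeks. The floxed allele could therefore also be lost in control beta cells, which kept a wild-type allele, and the lacZ allele of the mutants is present in every cell type. The series describes the controls as litter matched.

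Insm1 is a zinc finger repressor of endocrine cells whose N-terminal SNAG domain binds the LSD1 demethylase. LSD1, encoded by Kdm1a, removes methyl groups from lysine 4 of histone H3. The CoREST proteins encoded by Rcor1, Rcor2 and Rcor3 bridge it to nucleosomes, and the deacetylases HDAC1 and HDAC2 sit in the same complex. REST binds a DNA element called RE1 near genes of synaptic vesicles, ion channels and secretory granules, and recruits CoREST to them. Most cells outside the nervous system make REST, whereas neurons and mature islet cells have little of it.

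Insm1 itself is given first because it was the targeted gene. Its brighter probe set read between 10.71 and 11.30 in mutants (median 11.08), against 10.94 to 11.60 in controls (median 11.24). The difference was −0.25 ± 0.11 (SE, limma, adjusted p = 0.182). Its other probe set differed by −0.05 (limma over probe sets, adjusted p = 0.781), with the mutant higher in 4 of 8 pairs. Neither the labels nor the annotation place these probes inside or outside the floxed segment, and these signals do not check the genotype. Of the 9 measured beta-cell markers 7 were called lower in mutants and 0 higher (0 also at an unadjusted p under 0.05). Of the 4 measured alpha-cell markers 2 were called higher by limma, Irx2 by 0.75 and Irx1 by 0.54, and 0 lower (0 also at an unadjusted p under 0.05). The glucagon gene Gcg differed by 0.07. The alpha-cell mean was higher in mutants in 8 of 8 pairs of equal replicate number. Of 3 delta- and PP-cell markers 0 were called (1 higher at an unadjusted p under 0.05), and their mean was higher in 7 of 8 pairs. Over all genes, 4.66% were called lower and 4.1% higher. Ins2, the main insulin gene, read at the top of the scale in both groups. In whole islets, fewer cells of a type and less RNA per cell cannot be told apart.

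Rest rose in mutant islets, and it was the only member whose brightest probe set changed past the threshold. The brightest Rest probe set read 7.83, 7.24, 7.51, 7.21, 7.31, 7.07, 7.39 and 6.998 in mutant replicates 1 to 8. The same probe set read 6.50, 6.21, 5.57, 5.63, 5.98, 5.91, 5.57 and 5.34 in control replicates 1 to 8. Every mutant array lay above every control array, and the array labelled replicate 1 was the highest of both groups. The means were 7.32 ± 0.26 in mutants and 5.84 ± 0.38 in controls (SD, n = 8 each). The difference was 1.48 ± 0.15 (SE, limma, adjusted p = 8.18e-06), a 2.79-fold higher signal with a 95% interval of 2.24-fold to 3.49-fold. With the replicate number as a block, which compares arrays of equal number, it was 1.48 ± 0.10 (SE, limma, adjusted p = 5.96e-06).

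Among all 18193 genes this was the 29th largest rise. Of all genes, 8.76% were called in either direction (17.6% with the replicate block) with 4.1% higher in mutants and 4.66% lower. The groups did not overlap for 2.29%, and for 1.19% with mutants the higher. Against this background 1 of the 9 members was called higher and 0 lower (0 lower also at an unadjusted p under 0.05). The control mean of Rest lay below the array medians, which ran from 6.29 to 6.35. The fold is one of signals and not of transcript numbers.

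The other 3 Rest probe sets did not all behave alike, and averaging all 4 gave a difference of 0.69 ± 0.08 (SE, limma, adjusted p = 2.87e-05), under that of the brightest alone. The second brightest read between 6.50 and 7.88 in mutants (median 7.07), against 5.63 to 6.35 in controls (median 5.90). These groups also did not overlap, which held for 1.84% of all probe sets. Its difference was 1.22 ± 0.19 (SE, limma over probe sets, adjusted p = 0.000545). The remaining pair were dim in both groups, with means of 4.55 and 4.35 in mutants and 4.50 and 4.35 in controls. Their differences were 0.05 and −0.00 (adjusted p = 0.664 and 0.991), and no level of Rest can be read from signals this close to the bottom of the scale.

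**Figure D1:**
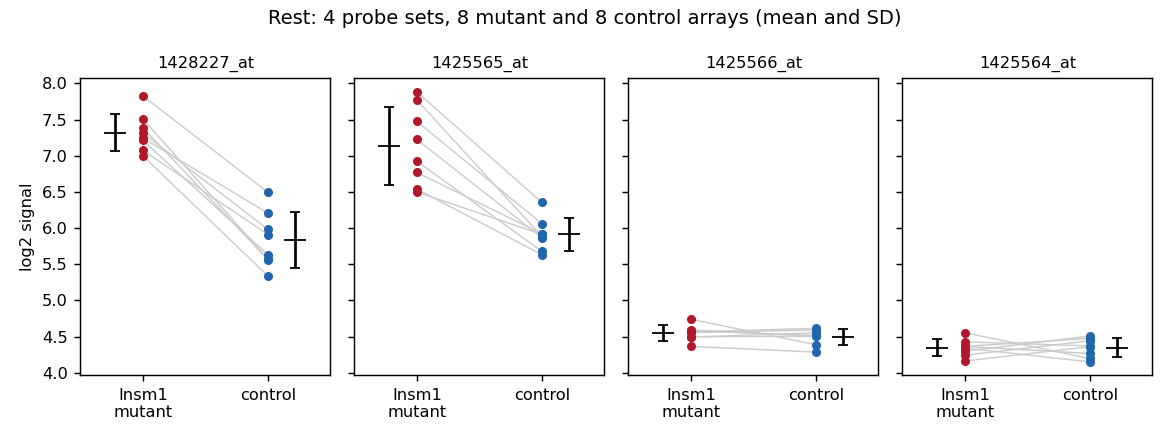
Log2 signal of the 4 Rest probe sets on each array, with Insm1 mutants on the left and controls on the right of each panel. Grey lines join arrays with the same replicate number, and black bars give mean and SD. The upper 2 probe sets by signal show all mutant arrays above all control arrays, and the 2 dim ones lie near 4.5 in both groups.

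Because non-endocrine cells express Rest, marker signals of other cells are set beside it. The shares called over all genes, to set beside the marker counts, were 8.76% and 17.6% with the replicate block. Immune-cell markers (18 measured) averaged 7.15 to 9.08 per array in mutants and 7.11 to 8.21 in controls, with mutant replicates 1 and 3 and control replicate 1 the highest. Of these markers 1 was called, C1qa, a complement gene of macrophages, which was higher in mutants by 0.88 ± 0.19 (SE, limma, adjusted p = 0.00598). Acinar-cell markers (14 measured) averaged 8.71 to 13.49 in mutants and 11.79 to 13.90 in controls. All 14 were below their control means, with a median difference of −1.56, and 13 were lower at an unadjusted p under 0.05 (limma). Of these 1 was called, Bhlha15, whose difference of −0.53 was the smallest of the 14 (adjusted p = 0.0399, lost on omitting any 1 of 11 arrays). All 14 were called lower with the replicate number as a block. In all, 17 of 35 alternatives ended the call of Bhlha15. The 11 arrays were mutant replicates 1, 2, 5 and 6 and control replicates 2 to 8.

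Stromal markers (12 measured) averaged 8.19 to 8.95 in mutants and 8.02 to 8.52 in controls. Of these Dcn and Col1a2, matrix genes of fibroblasts, were called higher by 1.29 and 0.60, and Acta2, a contractile gene, was called lower by −0.98 (limma, adjusted p = 0.00814, 0.0145 and 0.0105). With the replicate block 4 stromal markers were called higher and 2 lower. Duct markers (8 measured) averaged 7.45 to 7.77 in mutants and 7.66 to 8.08 in controls, and Krt19, a keratin of duct cells, was the one called, at −0.95 (adjusted p = 0.0113). Endothelial markers (12 measured) averaged 7.74 to 8.29 in mutants and 8.02 to 8.38 in controls, and 0 were called by limma (2 at an unadjusted p under 0.05). The difference between 3′ and 5′ control probe sets, a measure of RNA quality called the 3′ minus 5′ signal here, was lower in mutants in 8 of 8 pairs, at 0.36 ± 0.06 against 0.44 ± 0.09 in controls (SD). The following fits give the Rest difference with these signals added, but what part of it comes from them was not tested. The acinar mean was also lower in mutants in 8 of 8 pairs. Signals that differ with genotype in this way cannot be separated from it by a covariate.

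The difference of Rest was 1.35 with the immune mean as a covariate, 1.75 with the acinar mean, 1.42 with the endothelial mean and 1.45 with the stromal mean. With the 3′ minus 5′ signal it was 1.37, and without the arrays of replicate numbers 1 to 3, which hold the 3 highest immune means among mutants and the highest among controls, it was 1.51. The limma adjusted p of these fits lay between 6.76e-07 and 0.000165. In the fit with the immune and acinar means and the replicate block together the difference was 1.75, with a 95% interval of 0.94 to 2.55, but it was not called (adjusted p = 0.246). That fit called 3 genes in all.

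Within groups, Rest tended to be higher on arrays with more acinar signal, though only the Pearson value in mutants passed the adjustment. Arrays of equal replicate number are paired, so mutants and controls do not show this independently. The Pearson correlation over the 8 mutant arrays was 0.82 (exact permutation p = 0.0111, adjusted p = 0.0445 over 12 relations), with a Spearman rho of 0.79 (exact permutation p = 0.0279, adjusted p = 0.11). Over the 8 control arrays it was 0.78 (exact permutation p = 0.0246, adjusted p = 0.0737), with a rho of 0.76 (exact permutation p = 0.0368, adjusted p = 0.11). Without the 2 arrays farthest from the median it was 0.66 in mutants and 0.65 in controls. The acinar mean itself was lower in mutants in 8 of 8 pairs, and Rest was higher in 8 of 8. What acinar content contributes to the Rest difference was not tested.

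Rest and the immune mean correlated at 0.83 in mutants (exact permutation p = 0.00945, adjusted p = 0.0445), with a rho of 0.64 (exact permutation p = 0.0962, adjusted p = 0.192). This fell to 0.17 without the 2 farthest arrays, so it rests on those arrays. In controls it was 0.57 (exact permutation p = 0.135, adjusted p = 0.27). The endothelial mean correlated with Rest at −0.91 in mutants (exact permutation p = 0.00213, adjusted p = 0.0256), with a rho of −0.83 (exact permutation p = 0.0154, adjusted p = 0.11) and −0.63 without the 2 farthest arrays. In controls that value was −0.04 (exact permutation p = 0.922, adjusted p = 0.922) but −0.74 without the 2 farthest arrays, so no difference between the groups can be read from it. No rho passed the adjustment, the lowest adjusted p being 0.11. Of the 12 relations, 8 had an unadjusted p of 0.068 or more for Pearson's r. They include the stromal mean in controls, with r = 0.67 (exact permutation p = 0.068, adjusted p = 0.163), a rho of 0.79 (exact permutation p = 0.0279, adjusted p = 0.11) and r = 0.39 without the 2 farthest arrays. They also include the 3′ minus 5′ signal in mutants, with r = −0.53 (exact permutation p = 0.176, adjusted p = 0.281), a rho of −0.67 (exact permutation p = 0.0831, adjusted p = 0.192) and r = −0.85 without the 2 farthest.

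**Figure D2:**
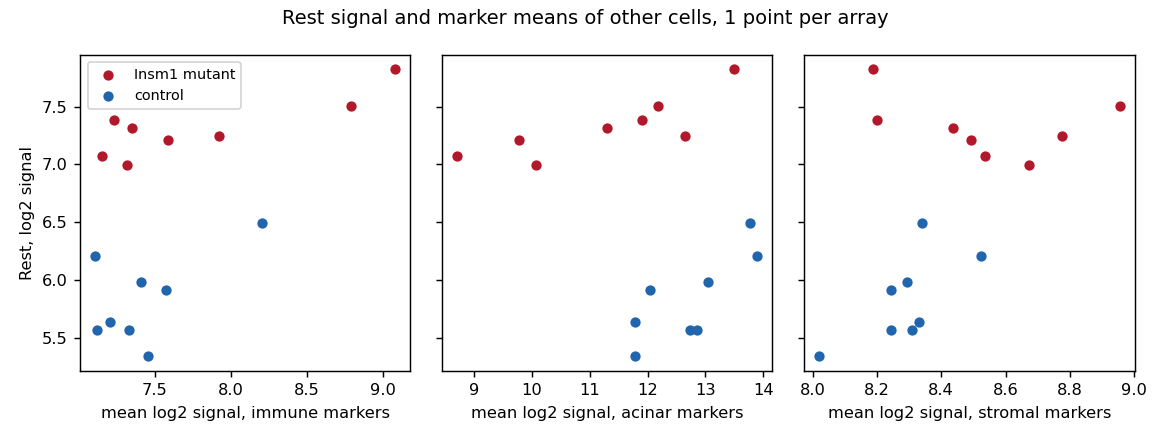
Log2 signal of Rest (brightest probe set) against the mean log2 signal of immune, acinar and stromal markers, with 1 point per array (red, Insm1 mutant; blue, control). Rest lies between 6.998 and 7.83 in mutants and between 5.34 and 6.50 in controls, so the groups do not overlap on the vertical axis.

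The transcript of the catalytic subunit LSD1 did not differ detectably. Kdm1a read 11.14, 11.34, 11.01, 11.10, 11.09, 11.17, 11.33 and 11.15 in mutant replicates 1 to 8. In control replicates 1 to 8 it read 11.19, 11.09, 11.19, 11.23, 11.07, 11.16, 11.32 and 11.27. The groups overlapped almost wholly, with the mutant higher in 4 of 8 pairs. Its difference was −0.02 ± 0.06 (SE, limma, adjusted p = 0.873), with a 95% interval of −0.14 to 0.09. The second Kdm1a probe set differed by −0.02 as well (adjusted p = 0.897).

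Of the CoREST scaffold genes, Rcor1 read 9.62 ± 0.16 in mutants and 9.58 ± 0.15 in controls (SD), with arrays from 9.45 to 9.82 and from 9.36 to 9.79. Its difference was 0.04 ± 0.08 (SE, limma, adjusted p = 0.823; 95% interval −0.12 to 0.20). Its second and dimmest probe sets gave 0.08 and 0.15 (adjusted p = 0.589 and 0.666). Rcor2 was dim, at 6.72 ± 0.10 in mutants and 6.74 ± 0.14 in controls, close to the array medians. The difference of −0.02 ± 0.07 (adjusted p = 0.881) had an interval of −0.16 to 0.11.

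Rcor3 was the most variable of the scaffold genes. Its brightest probe set read 9.53 ± 0.33 in mutants and 9.62 ± 0.20 in controls (SD), with mutant replicate 3 the lowest at 8.85. The difference was −0.09 ± 0.13 (SE, limma, adjusted p = 0.753), and its interval, −0.36 to 0.18, was the widest of the 9 members after that of Rest. Of its 6 probe sets 1 was called, a dim one. That probe set read 6.65, 6.42, 6.47, 6.52, 6.2996, 6.99, 6.36 and 6.36 in mutant replicates 1 to 8. In control replicates 1 to 8 it read 6.82, 6.61, 6.84, 6.91, 7.05, 6.85, 6.67 and 7.18.

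Mutant replicates 1 and 6 lay within the control range, and the other 6 mutant arrays were below all control arrays. The difference was −0.36 ± 0.10 (SE, limma over probe sets, adjusted p = 0.0382). Of all probe sets 6.86% were called. Omitting any 1 of 12 arrays ended this call, namely mutant 2, 3, 4, 5, 7 or 8 or control 1, 3, 4, 5, 6 or 8 (limma, highest adjusted p = 0.0768). So did 9 other settings, which brings the alternatives that ended it to 21 of 33. Among these were fits with the endothelial, stromal or Y-linked mean or with the 3′ minus 5′ signal added (adjusted p = 0.0519, 0.194, 0.0914 and 0.107), and leaving out numbers 1 to 3 (adjusted p = 0.141). Under the replicate block this dim probe set kept its call (limma, adjusted p = 0.0351). The other 5 probe sets of Rcor3 gave differences from −0.09 to 0.06, and the annotation used here does not say which transcript the called one reads.

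The deacetylase genes were slightly below their control means without passing the test. Hdac1 ran from 8.53 to 9.21 in mutants and from 8.65 to 9.41 in controls, and 6 of 8 pairs had the lower value in the mutant. The difference was −0.12 ± 0.12 (SE, limma, adjusted p = 0.628), and −0.12 ± 0.06 with the replicate block (adjusted p = 0.245). Hdac2 ran from 10.20 to 10.92 in mutants and from 10.38 to 10.74 in controls. The mutant was the lower one in the same number of pairs, with a difference of −0.09 ± 0.09 (adjusted p = 0.617; 95% interval −0.27 to 0.09). Its second brightest probe set gave −0.12 (adjusted p = 0.549), and the dimmest 0.00 (adjusted p = 0.994).

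Hmg20b encodes BRAF35, a DNA-binding subunit of the complex, and was dim. It read 6.55 ± 0.11 in mutants and 6.54 ± 0.09 in controls (SD), a difference of 0.00 ± 0.06 (SE, limma, adjusted p = 0.99; 95% interval −0.12 to 0.12). Phf21a encodes BHC80, which binds histone H3 unmethylated at lysine 4, the product of LSD1. Its brightest probe set read 8.70 ± 0.16 in mutants and 8.72 ± 0.15 in controls, a difference of −0.01 ± 0.08 (adjusted p = 0.949).

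Another Phf21a probe set, dimmer than the brightest, read 7.89, 7.87, 8.12, 7.98, 7.73, 8.07, 7.86 and 7.75 in mutant replicates 1 to 8. In control replicates 1 to 8 it read 7.81, 7.65, 7.73, 7.53, 7.68, 7.64, 7.87 and 7.51. It was higher in the mutant in 7 of 8 pairs, by 0.23 ± 0.07 (SE, limma over probe sets, adjusted p = 0.0545). Under the replicate block its adjusted p was 0.0356, past the threshold. The remaining probe sets gave 0.06 and 0.12 (adjusted p = 0.656 and 0.709). Over all 25 probe sets of the 9 genes, 2 were called higher, both of Rest, and 1 lower, that of Rcor3.

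**Figure D3:**
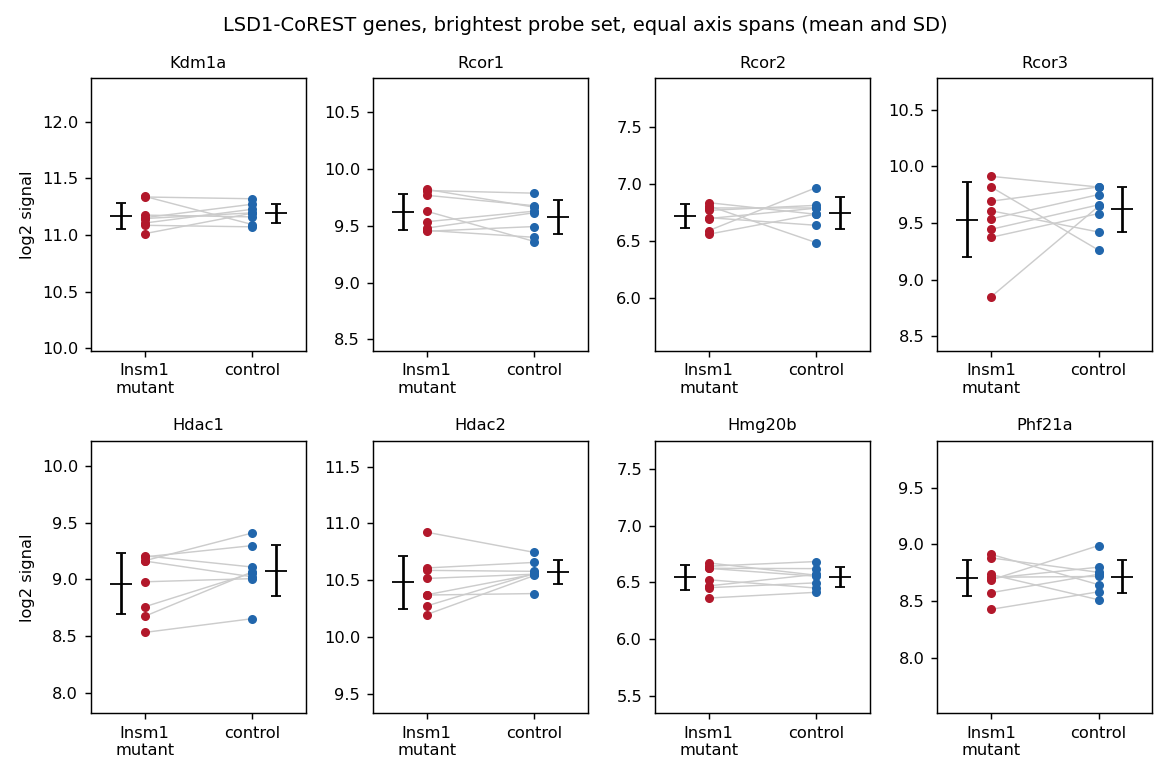
Log2 signal of the 8 members other than Rest on each array (brightest probe set), with Insm1 mutants left and controls right, and axes that all span the same range. Grey lines join equal replicate numbers and black bars give mean and SD. The groups overlap in all 8 panels.

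**Figure D4:**
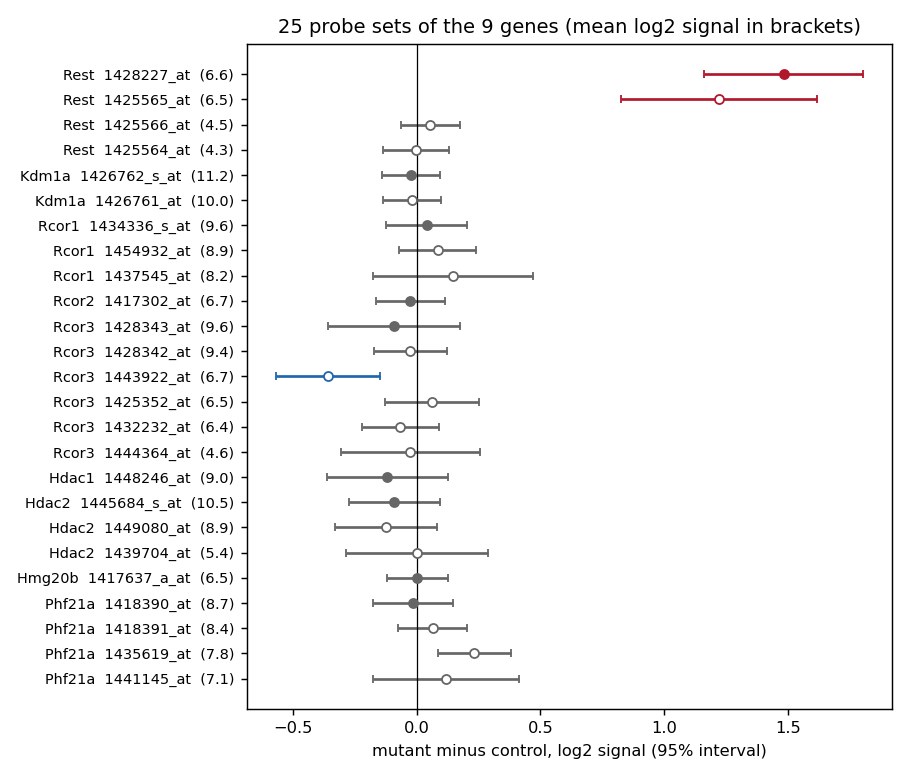
Difference in log2 signal, mutant minus control, with 95% intervals for all 25 probe sets of the 9 genes. Filled points are the brightest probe set of each gene, and coloured ones passed the threshold (red higher, blue lower). The 2 brighter Rest probe sets lie at 1.48 and 1.22, and all others lie between −0.36 and 0.23.

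Genes that work with the complex were taken from a list of 27 measured genes, which held partners of LSD1, CoREST and REST and enzymes that modify REST. Of these 3 were called higher and 0 lower (2 lower at an unadjusted p under 0.05), or 11.1% against 8.76% of all genes, and the median difference was 0.04 against −0.01 over all genes. Ctbp2 encodes a corepressor that associates with LSD1, and it ran from 9.61 to 10.02 in mutants (median 9.87), against 9.03 to 9.56 in controls (median 9.35). The groups did not overlap, and the difference was 0.53 ± 0.08 (SE, limma, adjusted p = 0.000315), with both of its probe sets called higher.

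Zfp217, the gene of a zinc finger protein found with CoREST, ran from 7.83 to 8.42 in mutants (median 8.17), against 7.51 to 7.77 in controls (median 7.71). It rose by 0.49 ± 0.08 (SE, limma, adjusted p = 0.00128). Sap30, a subunit of the SIN3 deacetylase complex that REST recruits through its other end, rose by 0.30 ± 0.08 (adjusted p = 0.0188), with overlapping groups. Its call was lost with the 3′ minus 5′ signal as a covariate (0.22, adjusted p = 0.142) and without the arrays of numbers 1 to 3 (0.23, adjusted p = 0.205). The scaffold genes Sin3a and Sin3b differed by −0.02 and 0.20, and the methyltransferase genes Ehmt1 and Ehmt2 by 0.11 and −0.01 (adjusted p = 0.892, 0.205, 0.607 and 0.927). Under the replicate block Sin3b passed the threshold (adjusted p = 0.0148).

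LSD1 is also part of the NuRD remodelling complex. Of its 13 measured genes, which include Hdac1 and Hdac2, 1 was called lower and 0 higher (1 higher at an unadjusted p under 0.05), with a median of −0.01. That is 7.69%, near the 8.76% of all genes. With the replicate block 2 were called lower and 1 higher, where the block called 17.6% of all genes. The gene called was Mbd2, a methyl-CpG binding protein, at 10.73 ± 0.12 in mutants and 10.93 ± 0.11 in controls (SD, adjusted p = 0.0451 by limma). Each of 8 pairs had the mutant lower. In the fit over probe sets 0 of its 2 probe sets were called (limma, adjusted p = 0.0557 and 0.0544). Omitting any 1 of 12 arrays ended the call, namely mutant 2, 3, 4, 5 or 7 or control 1 or 3 to 8 (limma, highest adjusted p = 0.0897). In all, 21 of 35 alternatives ended it, among them quantile normalization, the stromal and Y-linked means and leaving out numbers 1 to 3 (adjusted p = 0.0764, 0.292, 0.0877 and 0.0678). Under the replicate block Mbd2 was still called (limma, adjusted p = 0.005).

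Insm1 belongs to a set of transcription factors whose SNAG domain binds LSD1. Of 9 such genes measured, 1 was called lower and 0 higher (0 also at an unadjusted p under 0.05), or 11.1%, near the 8.76% of all genes. Scrt1, a zinc finger repressor of neural and endocrine cells, ran from 6.95 to 7.26 in mutants (median 7.15), against 7.20 to 7.61 in controls (median 7.45). The difference was −0.31 ± 0.07 (SE, limma, adjusted p = 0.00712). Of the 2 probe sets of Scrt1 1 was called, and with the mean of probe sets 0 of the 9 genes were called lower. The paralogue Insm2 differed by 0.04 (adjusted p = 0.759). For Gfi1 and Snai1 the signals were close to the bottom of the scale, with differences of 0.03 and 0.02 (adjusted p = 0.965 and 0.921).

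Since REST represses genes through RE1 elements, a list of neuronal and secretory genes held to carry such elements was examined. The list was written from general knowledge, and its genes are called RE1 genes here whether or not an element was found. Short windows of their promoters are shown because the letters REST reads are visible in them. The windows are from RefSeq on GRCm38.p6, on the strand of the gene, and their capitals mark the searched letters, which were TTCAGCACC, the left arm of the RE1 element, or for Gria2 the inner letters, AGCACC and GGACAG with any 2 bases between them. Both strands were searched, and where the match is on the opposite strand the capitals are the reverse complement.
Gria2, chr3:80802984-80803013, minus strand: ccaaagcgCTGTCCGCGGTGCTaaaatcga
Scg2, chr1:79440015-79440043, minus strand: ggagctgtccGGTGCTGAAacggcccgag
Ptprn2, chr12:116485723-116485751, plus strand: ggcgctgtccGGTGCTGAAgctcggccgg
Unc13a, chr8:71671717-71671745, minus strand: ccgcgcccccGGTGCTGAAgcgacatggc
Celsr3, chr9:108825908-108825936, plus strand: cccagctccgTTCAGCACCgtgggcagca
Syn1, chrX:20921132-20921160, minus strand: cactgtcggaTTCAGCACCgcggtcagag

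The list was drawn up for such elements and the letters were chosen after several were tried, so the following counts describe the windows and test nothing. The left arm was found in 5 of the 33 listed genes that have a promoter window, against 117 of 27025 genes in all (0.433%). The inner letters were found in 1 of the 33 and in 16 of the 27025 (0.0592%). Both searches contain the letters AGCACC, and neither was matched in the 7 members with a window. The promoter entries cover only a short stretch around a start site, and RE1 elements can lie elsewhere. Windows of Rest and Hdac1 were not used here.

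RE1 genes were called in both directions. The list was chosen with earlier results of these data known, so its counts describe the list and test nothing. Of the 46 measured, 6 were called higher and 3 lower, that is 19.6% against 8.76% of all genes, and 37 were not called. The median difference was 0.01, with 25 genes above 0 and 21 below. With the replicate block 10 were called higher and 6 lower, while the block raised the share over all genes to 17.6%. Their mean per array was 9.10 ± 0.14 in mutants and 9.01 ± 0.08 in controls (SD), and higher in the mutant in 6 of 8 pairs.

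The gene with the largest rise was Calb1, which encodes the calcium-binding protein calbindin. It ran from 11.25 to 12.20 in mutants (median 11.70), against 9.88 to 10.68 in controls (median 10.19), a difference of 1.47 ± 0.14 (SE, limma, adjusted p = 5.11e-06). Of its 4 probe sets 3 were called higher. Cdk5r1, the p35 activator of the kinase Cdk5, ran from 8.46 to 9.28 in mutants (median 8.80), against 7.54 to 8.27 in controls (median 7.91), a difference of 0.91 ± 0.12 (adjusted p = 8.92e-05). The groups did not overlap for either gene, and for Cdk5r1 the 2 brighter of 4 probe sets were called.

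Gria2, the AMPA receptor subunit gene with RE1 letters in its window, ran from 9.08 to 10.07 in mutants (median 9.81), against 8.43 to 9.35 in controls (median 8.91). The difference was 0.85 ± 0.16 (SE, limma, adjusted p = 0.0023), and its 3 probe sets were all called higher. Scn3b, a sodium channel beta subunit gene, was higher by 0.77 ± 0.12 (adjusted p = 0.000353) without overlap, and 1 of its 2 probe sets was called. Nefm, a neurofilament gene, was higher by 0.95 ± 0.29 (adjusted p = 0.0488), and Mapk8ip1, a JNK scaffold gene, by 0.53 ± 0.15 (adjusted p = 0.0383). Omitting any 1 of 12 arrays ended the call of Nefm, and any 1 of 11 that of Mapk8ip1. For Nefm these were mutant replicates 1, 3, 4, 5, 7 and 8 and control replicates 1, 2, 3, 4, 6 and 8, and for Mapk8ip1 mutant replicates 1, 2, 3, 4 and 6 and control replicates 1, 2, 3, 6, 7 and 8. In all, 26 of 35 alternatives ended the call of Nefm and 21 that of Mapk8ip1. For Nefm these include the fit over probe sets (limma, adjusted p = 0.0555). Under the replicate block Nefm and Mapk8ip1 were still called (limma, adjusted p = 0.00623 and 0.0219). The other probe set of Mapk8ip1 gave 0.01 (adjusted p = 0.979).

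Gjd2, the gap junction gene that couples beta cells, was the lower one with the smallest p. It ran from 11.72 to 12.14 in mutants (median 11.96), against 12.43 to 12.66 in controls (median 12.57). The groups did not overlap, and the difference was −0.65 ± 0.06 (SE, limma, adjusted p = 3.90e-06), with both probe sets called. Vgf, the gene of a granule peptide precursor, and Nefh, a neurofilament gene, were lower by −0.54 ± 0.16 and −0.69 ± 0.20 (adjusted p = 0.0384 and 0.0445) and in 8 of 8 pairs each. Nefm, Vgf and Nefh were named after their values were seen. Omitting any 1 of 10 arrays ended the call of Vgf, and any 1 of 12 that of Nefh. For Vgf these were mutant replicates 1, 2, 4, 5, 6 and 7 and control replicates 1, 3, 6 and 8, and for Nefh mutant replicates 1, 2, 4, 6, 7 and 8 and control replicates 2, 3, 4, 5, 6 and 8. In all, 17 of 35 alternatives ended the call of Vgf and 22 that of Nefh. For Nefh these include the fit over probe sets (limma, adjusted p = 0.051). With the replicate block Vgf and Nefh kept their calls (limma, adjusted p = 0.000557 and 0.00718).

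Of the RE1 genes whose windows hold the left arm, 0 of 5 were called by limma (0 also at an unadjusted p under 0.05). With 8.76% of all genes called, 5 genes are too few to set a share against that. The granin gene Scg2 differed by 0.10 and the islet antigen gene Ptprn2 by −0.07, and the differences of Unc13a, Celsr3 and Syn1 were −0.15, 0.01 and −0.05 (adjusted p = 0.437, 0.635, 0.584, 0.972 and 0.832). Scg2 averaged 14.67 ± 0.12 in mutants and 14.57 ± 0.14 in controls (SD), near the highest value on the arrays, 15.39. Among vesicle genes, Syp, Snap25 and Stx1a differed by −0.01, 0.19 and 0.04 (adjusted p = 0.982, 0.316 and 0.856), and under the replicate block Snap25 passed the threshold (adjusted p = 0.0388).

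**Figure D5:**
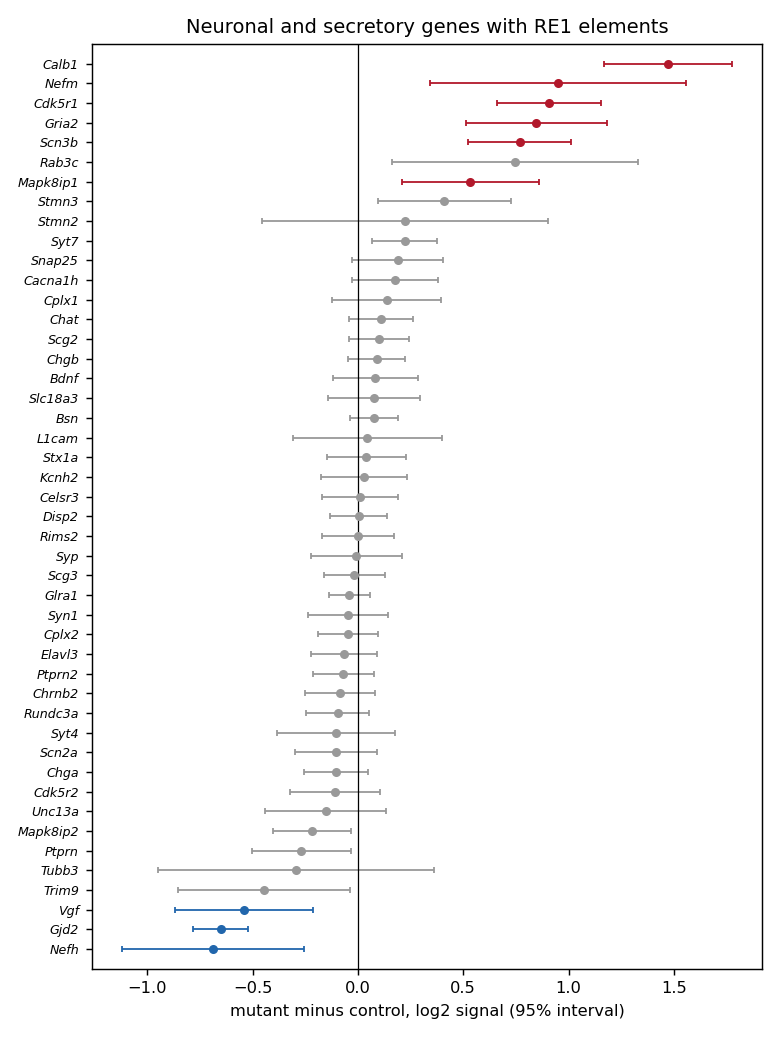
Difference in log2 signal, mutant minus control, with 95% intervals for the 46 measured genes of the RE1 list, ordered by size. Red points were called higher (6), blue ones lower (3) and grey ones were not called. Differences run from −0.69 for Nefh to 1.47 for Calb1, with most near 0.

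The genes whose signal followed Rest most closely over the 16 arrays were Edil3, Gpat3, Zfas1, Map3k21, Rab20 and Tle4. Their Pearson correlations with Rest were 0.97, 0.96, 0.94, 0.94, 0.94 and 0.93, a description over arrays that share the difference between the groups. All 6 were called higher in mutants and were higher in 8 of 8 pairs, which follows largely from how they were chosen. Edil3, an extracellular matrix gene, averaged 8.88 ± 0.59 in mutants and 6.36 ± 0.52 in controls (SD), and Tle4, a Groucho corepressor gene, 8.95 ± 0.25 in mutants and 7.79 ± 0.17 in controls. Among the members, the correlation with Rest over all arrays ran from −0.25 for Kdm1a and Hdac2 to 0.08 for Rcor1.

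When the group means were removed, the closest genes were others. Bahcc1, Ifi27l2a, Vtn, Trim26, Rab29 and Reg3d had correlations of 0.87, 0.86, 0.86, 0.86, 0.85 and 0.85 with the deviations of Rest. None of these 6 was called (limma, adjusted p = 0.568, 0.907, 0.708, 0.934, 0.426 and 0.369; 0 at an unadjusted p under 0.05). Edil3 kept a correlation of 0.81 on this scale. Reg3d, a secreted lectin gene, averaged 7.44 ± 1.57 in mutants and 8.70 ± 1.75 in controls, with the mutant lower in 8 of 8 pairs. Under the replicate block Reg3d passed the threshold (limma, adjusted p = 0.00605).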

How the data were processed

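The authors' deposited table holds log2 signals of 45101 probe sets on 16 arrays. Total RNA was labelled with a 3′ IVT kit, per the labels' protocols. The background correction, summarisation and normalization are not given in the sources used here, and the log base was taken from the range of the values, 2.74 to 15.39. Array medians ran from 6.29 to 6.35 and correlations between arrays from 0.97 to 0.99. The number of arrays limits the precision.

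Probe sets were named through the platform annotation: 34945 name 1 gene, 932 several and 9160 none, and 64 are controls. Symbols of 34741 were updated through RefSeq. The brightest probe set stood for each of 18193 genes. Mutant minus control was fitted with limma 3.58.1 in R 4.3.3 (lmFit, eBayes with trend), with Benjamini-Hochberg adjustment and a threshold of 0.05. A second fit used every probe set that names 1 gene. On simulated data with the same number of genes, the test recovered 84 of 100 genes changed 1.5-fold and 99 of 100 changed 3-fold. The simulated arrays were independent, without pairing or shared differences in cell content, so recovery on the real arrays may differ.

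The labels give both groups the replicate numbers 1 to 8. After subtraction of group means, arrays of equal number correlated at 0.24 to 0.73 (median 0.47), over 0.1 in 8 of 8 pairs, against a median of −0.10 between other numbers, so the numbers pair the arrays. The main fit left this pairing out, and the fits with the replicate block took it in. The labels do not say that arrays are separate animals. The p-values of the main fit measure the spread between these preparations without regard to the pairing.

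Named genes were the 9 members, Insm1, up to 6 called genes with the lowest p of each list, the 6 genes most like Rest on each measure, and the called or defining markers. The members and lists were chosen with earlier results of these data known. Promoter sequences are from RefSeq on GRCm38.p6, and the motif letters were chosen after several were tried.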

Additional observations from a re-analysis of the deposited data

Results flagged for a closer look

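In 6 of 114 groups of 8 arrays, 1 array stood apart from the others by Dixon's criterion, which chance does in about 1 group in 20. Among mutants this was replicate 1 for Tle4, at 9.53. Among controls, replicate 1 stood apart for Ifi27l2a at 9.27, for the acinar factor gene Bhlha15 at 10.32 and for the leukocyte gene Ptprc at 10.63. Control replicate 2 stood apart for Gcg at 14.76 and control replicate 6 for Mapk8ip1 at 7.60. None of the 9 members had such an array.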

How the results depend on the processing

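Of 315 values of the members under 35 alternatives, 314 kept their side of the threshold. The value of Rest moved most with the mean of its probe sets, to 0.69. The exception was Rest with immune and acinar means and the replicate block, at 1.75 (limma, adjusted p = 0.246), where 0 members and 3 of all genes were called. The replicate block alone called 3200 genes, with 10 RE1 genes higher and 6 lower. Leaving out numbers 1 to 3 called 828 genes, and the block with the acinar mean 697. The block with the 3′ minus 5′ signal called 238, with 3 RE1 genes higher and 1 lower. With both means and the block, 0 RE1 genes were called in either direction. RE1 genes called lower numbered 1 with the immune mean, 1 with the endothelial mean, 5 with the acinar mean and 5 with the immune mean and the block. Leaving out 1 array gave 1 to 3 RE1 genes lower, with 1 lower without mutant replicates 1, 2, 4, 6 or 7 or control replicates 3, 6 or 8. With both means and the block, Mapk8ip1 was −0.79, Nefm −0.065 and Dcn −0.25, and with the 3′ minus 5′ signal and the block Dcn was −0.030 and Col1a2 −0.044. The cause was not tested. Sign changes of uncalled values were not counted as reversals. The fits with 2 means, with the acinar mean or the 3′ minus 5′ signal together with the block, and those of 3 probe sets were chosen after seeing the data. Dim probe sets such as those of Rcor2 and Hmg20b limit what can be detected.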
